A study of Homo sapiens with 8 samples.

Results

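Translation initiation factors are the proteins that bring an mRNA, the initiator tRNA and both ribosomal subunits together at a start codon. The 49 genes described here were taken by symbol: all protein-coding genes whose symbol starts with EIF1, EIF2S, EIF2B, EIF3, EIF4, EIF5 or EIF6, without the EIF2AK kinases and without EIF1AY, among the 57736 gene IDs of the deposited count files. The cells were IMR90 human fetal lung fibroblasts, and there were 8 libraries in 2 experiments. In the RNA-seq experiment, 1 library with knockdown of ADAR1 (ADAR1 KD) stood against 1 control library (Ctrl). In the RIP-seq experiment, cells carrying shADAR1, shHuR or shControl were each measured in an anti-HuR precipitate (1 library) and in the input taken before it (1 library). Nothing else distinguishes the groups in the labels, which name no separate clones or cultures. Every group thus held 1 library, so a difference between a pair of libraries has no replicate check.

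ADAR1 (gene ADAR) converts adenosine to inosine in double-stranded RNA, and HuR (gene ELAVL1) binds U-rich and AU-rich stretches of mRNA, mostly in 3′ untranslated regions (3′ UTRs). RNA immunoprecipitation recovers the RNA that a protein holds, and recovery is read as the ratio of the precipitate to the input of the same cells. In initiation, eIF2 carries the initiator tRNA and is recharged with GTP by eIF2B, whose inhibition by phosphorylated eIF2 is the core of the integrated stress response. The cap-binding protein eIF4E, the scaffold eIF4G and the helicase eIF4A bring the mRNA to a small subunit loaded with eIF1, eIF1A and eIF3, and the 4E-binding proteins hold eIF4E back when mTOR is inactive. eIF5 and eIF5B complete start codon selection and subunit joining, and eIF5A, the only known hypusinated protein family, relieves stalled ribosomes.

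Totals ran from 28390935 counts (shADAR1 input) to 50711218 (ADAR1 KD) per library. The initiation factors took 1.10% of the counts in both RNA-seq libraries, 1.48%, 1.81% and 2.05% in the shADAR1, shHuR and shControl precipitates, and 0.81%, 0.84% and 1.02% in the inputs of the same lines. ADAR had 1445 counts in ADAR1 KD and 7732 in Ctrl, and 3142 counts in the shADAR1 input, 9406 in the shHuR input and 12890 in the shControl input. ELAVL1 had 3545 counts in the shADAR1 input, 674 in the shHuR input and 4806 in the shControl input, so the libraries matched their labels. In the precipitates ELAVL1 had 23285, 742 and 27765 counts in shADAR1, shHuR and shControl. The fibroblast markers (7 genes) summed to between 3067 and 8841 scaled CPM (CPM with library sizes scaled by TMM, the trimmed mean of M values) in the 8 libraries. Sums ran from 0.66 to 15.25 scaled CPM for 4 epithelial markers and from 0.35 to 11.23 for 3 endothelial markers, and CDH5, KRT5 and the T cell gene CD3E were at 0 in all libraries. The epithelial genes CLDN4 and EPCAM were not at 0 in RNA-seq. CLDN4 had 675 counts in ADAR1 KD and 427 in Ctrl, and EPCAM had 103 and 136. In the RIP-seq libraries CLDN4 had at most 61 counts and EPCAM at most 16, both in the shControl input. The reason for this difference between the experiments was not tested. The monocyte gene CD14 had 152 counts in the shADAR1 input against 1 in the shControl input, and the endothelial gene KDR had 538 counts in ADAR1 KD against 74 in Ctrl; their part in the results below was not tested. No mock precipitate was analysed here, so recovery in these libraries cannot be told apart from binding to the beads.

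The initiation factors split in recovery with the antibody against HuR, and the 30-base windows richest in T of their annotated 3′ UTRs are shown because they differ between most of the recovered and most of the depleted transcripts. The sequences below come from GENCODE 29, from 1 principal transcript per gene, on GRCh38, written 5′ to 3′ on the transcript's strand as DNA. Capitals mark matches to TTTNTTT, a simple U-rich motif of the kind HuR binds. The first set holds 5 strongly recovered factors with long runs of T, chosen with their values known.
EIF5A (chr17:7312100-7312129, + strand): tggtttagtcTTTTTTTTTTTTTTTTTTTT
EIF2S3 (chrX:24076918-24076947, + strand): gttattctcTTTTTTTTTTTTTTTTTTTTT
EIF4E (chr4:98878583-98878612, - strand): gatatatTTTCTTTTTTTTTTTTTTTTTTT
EIF4E3 (chr3:71684394-71684423, - strand): ttcttttcactctgaTTTTTTTTTTTTTTT
EIF1AD (chr11:65997327-65997356, - strand): gactatcTTTTTTTTTTTTTTTTTTTTTTT

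The second set holds strongly depleted factors whose most T-rich window has no match, also chosen with their values known. EIF3I was as strongly depleted (log2 change -2.83) but is not printed. Its most T-rich window has 3 matches, within a run of 9 T.
EIF3C (chr16:28735584-28735613, + strand): tctgtttaaagttgttctggttgattgctt
EIF3G (chr19:10115079-10115108, - strand): ctgccactgtgtactcggtccgggaccctt
EIF3K (chr19:38636921-38636950, + strand): cttcaggtgtttaataaagatgtgttgact
EIF2B4 (chr2:27364358-27364387, - strand): agggttaataaatgccatactccctaccct

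The third set holds a pair that went the other way, since EIF4G2 was strongly recovered and EIF3M was depleted, and EIF1B, whose recovery in shHuR cells lay furthest below that in shControl cells.
EIF4G2 (chr11:10797658-10797687, - strand): ttaggatttccttctgcataaggTTTTTTT
EIF3M (chr11:32605151-32605180, + strand): ctagtaatacTTTTTTTTTTTTTTTTTTTT
EIF1B (chr3:40312286-40312315, + strand): tttcacttgattaaaTTTTTTTgttgttgt

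Which initiation factor mRNAs were recovered with HuR was tested over the 3 lines, precipitate against input, with the line as block. Of the 48 factors tested, 14 rose in the precipitates, 25 fell and 9 did not pass (edgeR's quasi-likelihood test, adjusted p under 0.05 over all 16232 genes). Among all genes tested, 30.3% rose and 31.3% fell, so the factors' share of risers was near the background and their share of fallers was above it, as a description only. Their median log2 change was -0.88, against -0.11 over all genes. The direction of each value is relative to the scaling: with scaling to total counts in place of TMM, the median of all genes in precipitate over input moved to -1.11 in shADAR1, -1.25 in shHuR and -1.11 in shControl, against -0.26, -0.26 and -0.25. Changes below are therefore relative to the bulk of genes. EIF4E1B, an oocyte cap-binding protein, had 0 counts in all 8 libraries and was not tested. In bulk samples such as these, fewer cells of a type and less RNA per cell cannot be told apart.

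**Figure D1:**
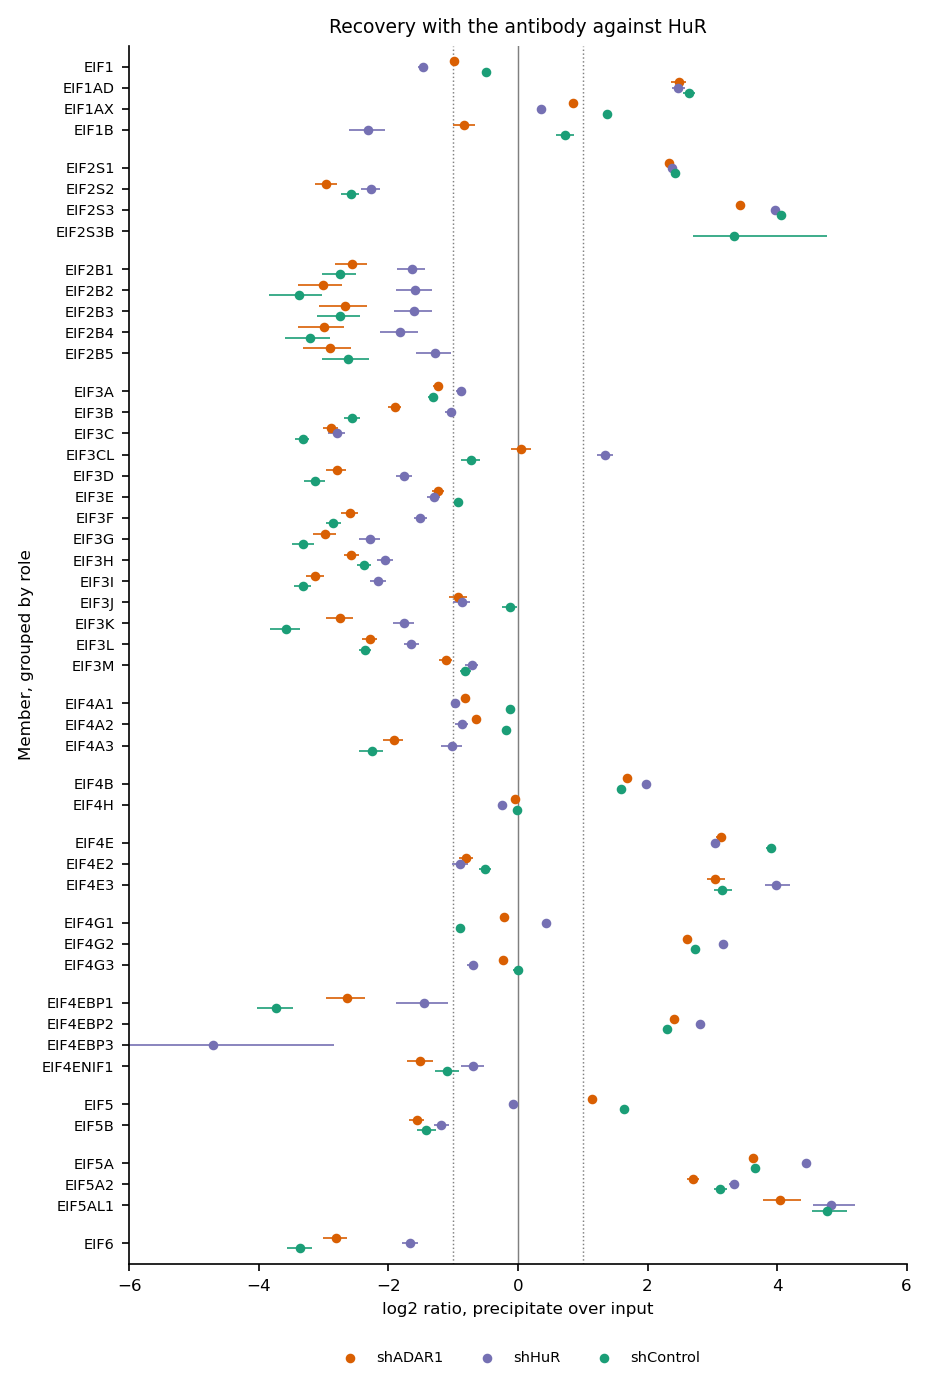
Recovery of each initiation factor as the log2 ratio of precipitate over input (horizontal axis) in shADAR1, shHuR and shControl cells, grouped by role; points are 1 library pair each, lines are 95% counting intervals, dotted lines mark 2-fold, and factors with under 50 counts in both libraries of a pair are not drawn. The eIF5A genes lay right of 2 in all lines and the eIF2B genes left of -1; the interval of EIF4EBP3 in shHuR, with 0 counts in the precipitate, runs off the left edge.

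All 3 eIF5A genes rose in the precipitates. EIF5A, the main eIF5A gene, had 5708, 8513 and 6847 scaled CPM in the precipitates of shADAR1, shHuR and shControl, against 461, 392 and 544 in the inputs, a log2 change of 3.95 ± 0.28 (SE, adjusted p = 1.02e-05). The 3 precipitates lay far above the 3 inputs, with no overlap. EIF5A2, its paralog, had 199, 418 and 164 scaled CPM in the precipitates and 30.5, 41.5 and 18.8 in the inputs (3.10 ± 0.28, adjusted p = 1.26e-05). EIF5AL1, an intronless copy nearly identical to EIF5A, had 45.05, 51.5 and 64.2 scaled CPM in the precipitates against 2.68, 1.76 and 2.30 in the inputs (4.63 ± 0.36, adjusted p = 1.02e-05), and reads may be split between EIF5A and EIF5AL1, so its value is uncertain.

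Within eIF2, the subunits went opposite ways. EIF2S3, the gamma subunit that binds GTP and the initiator tRNA, had 1938, 1839 and 3605 scaled CPM in the shADAR1, shHuR and shControl precipitates, against 181, 117 and 216 in the inputs (3.87 ± 0.28, adjusted p = 1.02e-05). EIF2S1, the alpha subunit that the stress kinases phosphorylate, had 394, 484 and 313 scaled CPM in the precipitates and 78.6, 92.5 and 57.9 in the inputs (2.43 ± 0.25, adjusted p = 2.75e-05). EIF2S2, the beta subunit, had 9.66, 20.6 and 14.97 scaled CPM in the precipitates against 75.3, 99.3 and 89.99 in the inputs and fell (-2.56 ± 0.30, adjusted p = 4.94e-05). The alpha and gamma subunits were thus higher in every precipitate than in any input, and the beta subunit was lower in every precipitate than in any input. EIF2S3B, a retrocopy of EIF2S3 that can share its reads, also rose, at 1.43, 1.09 and 2.42 scaled CPM in the precipitates against 0.24, 0.19 and 0.19 in the inputs, which is an uncertain value from few counts.

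All 5 subunits of eIF2B, the exchange factor of eIF2, fell, with log2 changes between -2.65 for EIF2B4 and -2.24 for EIF2B5. EIF2B5, the catalytic epsilon subunit, had 2.14, 6.57 and 2.38 scaled CPM in the shADAR1, shHuR and shControl precipitates, against 16.4, 16.1 and 14.98 in the inputs (-2.24 ± 0.41, adjusted p = 0.000826). EIF2B4, the delta subunit, had 2.36, 5.49 and 2.48 scaled CPM in the precipitates against 19.3, 19.4 and 23.5 in the inputs (-2.65 ± 0.39, adjusted p = 0.000232). The shHuR precipitate was the highest of the precipitates for each of the 5 genes and still lay below every input.

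The eIF3 genes, which encode the scaffold around the small subunit, showed no riser: 12 of 14 fell, and EIF3J and EIF3CL did not pass. EIF3C, a core subunit, had 22.3, 25.8 and 22.9 scaled CPM in the shADAR1, shHuR and shControl precipitates, against 166, 179 and 230 in the inputs, the lowest change of all the factors (-2.96 ± 0.28, adjusted p = 1.57e-05). EIF3CL, a near-identical copy of EIF3C with the same annotated 3′ UTR length of 217 bases, had 19.2, 53.2 and 18.2 scaled CPM in the precipitates against 18.5, 21.0 and 30.2 in the inputs (0.26 ± 0.40, adjusted p = 0.584). Because reads can be divided between these copies, both values are uncertain. EIF3I and EIF3G, the WD-repeat and RNA-binding subunits, had log2 changes of -2.83 and -2.82, and EIF3K, a small peripheral subunit, had -2.65. EIF3A, the largest subunit, had 67.9, 75.8 and 53.9 scaled CPM in the precipitates and 160, 139 and 134 in the inputs, a smaller change (-1.09 ± 0.26, adjusted p = 0.00417). EIF3L, with a change of -2.05, overlaps other genes over 51.8% of its exon length, so part of its reads may not be its own. Without the shADAR1 libraries 9 of 14 passed downward, and the calls of EIF3A, EIF3E and EIF3M were lost; EIF3M also lost its call without shControl and without the block, and EIF3E without the block.

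Among the factors that act at the cap, recovery differed gene by gene. EIF4E, the canonical cap-binding protein, had 351, 409 and 544 scaled CPM in the shADAR1, shHuR and shControl precipitates, against 40.0, 49.7 and 36.4 in the inputs (3.41 ± 0.29, adjusted p = 1.05e-05). EIF4E3, a weak cap binder, had 114, 80.4 and 90.8 scaled CPM in the precipitates and 13.7, 5.02 and 10.1 in the inputs (3.45 ± 0.32, adjusted p = 1.51e-05). EIF4E2, which represses translation, had 32.3, 35.4 and 39.7 scaled CPM in the precipitates against 56.3, 65.8 and 56.5 in the inputs; it fell close to the threshold (-0.69 ± 0.27, adjusted p = 0.0452), and the call was lost without shADAR1, without shControl, without the block and with other scaling or filtering. Within the cap-binding family EIF4E and EIF4E3 thus rose, whereas EIF4E2 did not.

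Of the 4E-binding proteins, EIF4EBP2 rose and EIF4EBP1 and EIF4ENIF1 fell. EIF4EBP2, a translational repressor released from eIF4E by mTOR signalling, had 1005, 1534 and 1013 scaled CPM in the shADAR1, shHuR and shControl precipitates, against 190, 219 and 206 in the inputs (2.55 ± 0.26, adjusted p = 2.27e-05). EIF4EBP1, its best known paralog, had 3.42, 3.06 and 3.78 scaled CPM in the precipitates and 21.5, 8.50 and 50.8 in the inputs (-2.60 ± 0.45, adjusted p = 0.000671). The precipitates held nearly the same level of EIF4EBP1 in all lines, whereas the inputs spread widely. EIF4ENIF1, the transporter that carries eIF4E into the nucleus, had a change of -1.05 ± 0.32 (adjusted p = 0.015), which was lost without shADAR1 and without the block. EIF4EBP3 had only 0, 0 and 20 counts in the precipitates and 6, 65 and 25 in the inputs, and 73.4% of its exon length lies in a readthrough gene.

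The scaffolds and the helicases contained a single strong riser. EIF4G2 (DAP5), a scaffold without the eIF4E-binding site, had 7539, 9500 and 9573 scaled CPM in the shADAR1, shHuR and shControl precipitates, against 1230, 1053 and 1441 in the inputs (2.89 ± 0.25, adjusted p = 1.07e-05). EIF4G1, the main scaffold, had 379, 552 and 174 scaled CPM in the precipitates and 439, 409 and 322 in the inputs, with the groups overlapping (-0.17 ± 0.30, adjusted p = 0.621). EIF4G3 also overlapped, at 118, 75.3 and 74.0 in the precipitates against 137, 122 and 74.3 in the inputs (-0.26 ± 0.27, adjusted p = 0.409). Among the helicases, EIF4A1 had 185, 161 and 373 scaled CPM in the precipitates against 327, 317 and 405 in the inputs (-0.59 ± 0.27, adjusted p = 0.0733), and 48.6% of its exon length overlaps other genes. Without the shControl libraries EIF4A1 passed downward (-0.84). EIF4A2, its close paralog, did not pass either (-0.52 ± 0.27, adjusted p = 0.112). EIF4A3, a helicase of the exon junction complex rather than of initiation, had 13.1, 19.6 and 9.28 scaled CPM in the precipitates and 49.8, 39.8 and 44.5 in the inputs, and fell (-1.69 ± 0.34, adjusted p = 0.00153). EIF4B, which stimulates eIF4A, rose with 974.6, 899 and 1528 scaled CPM in the precipitates against 305, 228 and 510 in the inputs (1.80 ± 0.25, adjusted p = 0.000149), while its relative EIF4H was level with its inputs (-0.06 ± 0.24, adjusted p = 0.848).

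Of the genes whose symbol starts with EIF1, EIF1AD and EIF1AX rose and EIF1 fell. EIF1AD, a protein with an eIF1A-like domain, had 116, 139 and 141 scaled CPM in the shADAR1, shHuR and shControl precipitates, against 20.7, 25.03 and 22.6 in the inputs (2.58 ± 0.27, adjusted p = 2.74e-05). EIF1AX, the eIF1A of the scanning complex, had 129, 144 and 221 scaled CPM in the precipitates against 71.4, 112 and 84.9 in the inputs (0.91 ± 0.28, adjusted p = 0.0154). EIF1, which guards start codon accuracy, had 137, 90.6 and 220 scaled CPM in the precipitates against 272, 251 and 310 in the inputs (-0.94 ± 0.27, adjusted p = 0.0119). Of the joining factors, EIF5, the GTPase-activating protein of eIF2, rose in the test (0.96 ± 0.33, adjusted p = 0.027) although its shHuR precipitate lay below its inputs, at 327, 146 and 518 scaled CPM in the precipitates and 148, 154 and 166 in the inputs. EIF5B, the joining GTPase, fell, with 23.8, 36.5 and 15.4 scaled CPM in the precipitates against 70.3, 82.7 and 41.0 in the inputs (-1.34 ± 0.28, adjusted p = 0.00177). EIF6, which keeps the ribosomal subunits apart, fell with 8.95, 28.96 and 8.08 scaled CPM in the precipitates against 63.2, 92.0 and 83.3 in the inputs (-2.57 ± 0.37, adjusted p = 0.0002). The calls of EIF1AX and EIF5 were lost when shADAR1 or shControl was left out and without the block, and those of EIF1 when shADAR1 was left out and without the block. Scaling to total counts turned the direction of EIF1AX in shADAR1 (to -0.01) and in shHuR (to -0.64).

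**Figure D2:**
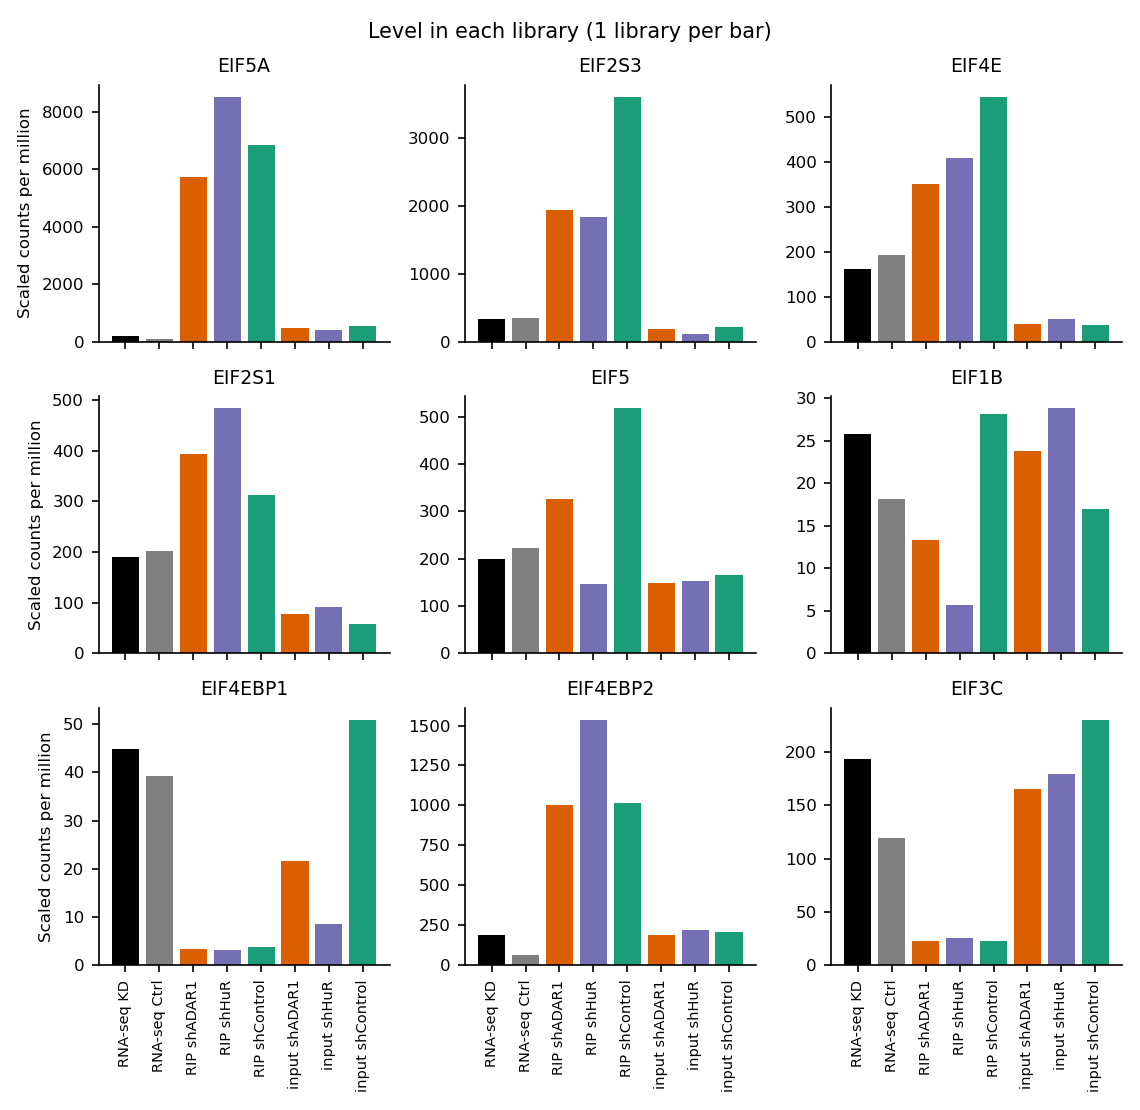
Scaled CPM (vertical axes, each starting at 0) of 9 initiation factors in the 8 libraries, 1 bar per library; RNA-seq libraries were scaled separately from the RIP-seq libraries. EIF5A, EIF2S3, EIF4E, EIF2S1 and EIF4EBP2 were higher in every precipitate than in any input, EIF3C and EIF4EBP1 lower, and EIF5 and EIF1B were low in the shHuR precipitate.

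Line by line, the same split stood in each pair of libraries, with 2-fold and at least 50 counts in one library as the limit. In shADAR1, 12 factors were higher in the precipitate and 23 lower among 46 with enough counts (all genes, 30.0% and 37.5%), in shHuR 12 and 23 of 47 (25.5% and 25.4%), and in shControl 14 and 21 of 47 (30.7% and 38.3%). Median log2 ratios of the factors were -1.05, -0.98 and -0.81 in shADAR1, shHuR and shControl, against -0.26, -0.26 and -0.25 over all genes. The highest factor was EIF5AL1 in each line, at 4.04, 4.83 and 4.77. EIF3I was the lowest with enough counts in shADAR1 (-3.13), EIF4EBP1 in shControl (-3.73), and in shHuR EIF4EBP3, with 0 counts in the precipitate against 65 in the input, followed by EIF3C (-2.79). Large recovery thus stood also in the shHuR cells, in which ELAVL1 had 14.0 scaled CPM in the input against 92.1 in the shControl input; HuR protein was not measured in these files.

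What the recovered factors shared was examined in the annotated 3′ UTRs, which all 49 factors have. TTTNTTT was searched on the transcript strand with overlapping matches counted. Of the 15 tested factors without a match, 0 rose and 13 fell; of 17 with 1 to 9 matches, 2 rose and 9 fell; of 16 with 10 or more, 12 rose and 3 fell. The same held over all protein-coding genes: 8.46% of the 3876 genes without a match rose, 16.4% of the 5847 with 1 to 9, and 70.7% of the 3333 with 10 or more, so the pattern is that of the genes as a whole and not particular to the initiation factors. Median log2 changes of the factors in these classes were -2.27, -0.94 and 2.49, against -1.59, -0.48 and 1.62 over all protein-coding genes. A run of at least 15 T stood in the 3′ UTR of 10 tested factors, of which 8 rose, and in that of 10.3% of all protein-coding genes, of which 81.6% rose.

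**Figure D3:**
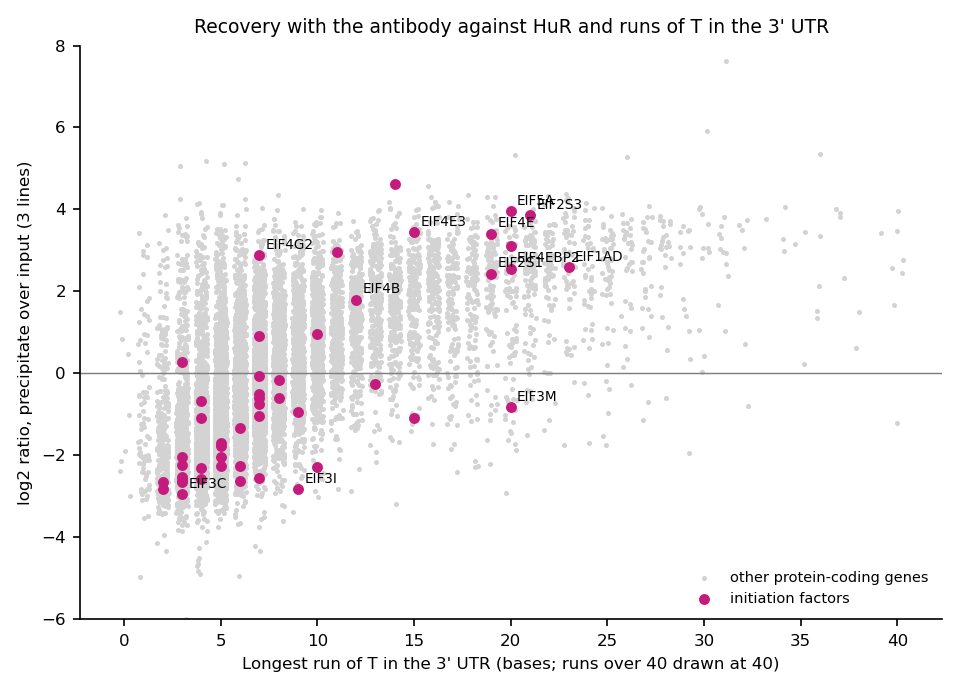
Log2 change of precipitate over input over the 3 lines (vertical axis) against the longest run of T in the annotated 3′ UTR in bases (horizontal axis, with a small sideways scatter for other genes), for initiation factors (dark points) and other protein-coding genes (light points). Factors with runs of 15 or more lay above 2, apart from EIF3A and EIF3M, and EIF4G2 lay at 2.89 with a run of 7.

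Across the 48 factors, Spearman's rho between the log2 change and the longest T run was 0.74, and with the count of TTTNTTT it was 0.72; over 13056 protein-coding genes the values were 0.63 and 0.67. The plain pentamer ATTTA gave 0.44 over the factors and 0.48 over all genes. These are correlations across genes of the same 6 libraries, and genes are not independent replicates. Length of the 3′ UTR moved with recovery too (0.52 over the factors, 0.50 over all genes), and median lengths were 217, 631 and 3201 bases in the 3 motif classes of the factors, so motif number and length cannot be told apart here. Within eIF2, the depleted EIF2S2 had 2 matches and a longest run of 7, against 28 and 19 for EIF2S1 and 26 and 21 for EIF2S3. In the 4E-binding family EIF4EBP2 had 41 matches in 6871 bases, whereas EIF4EBP1 had 0 in 430 bases. EIF4E and EIF4E3 had 64 and 51 matches, whereas EIF4E2 had 0 in 193 bases.

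The exceptions bound what the annotation can show. EIF4G2 rose by 2.89 with 1 match in 766 bases, and EIF3A, EIF3H and EIF3M fell with 24, 11 and 28 matches. The isoform in these cells is not known. Counts and FPKM (fragments divided by transcript length and library size) of the RNA-seq libraries together imply a mean effective length of 791 bases in ADAR1 KD and 713 in Ctrl for EIF3M, against 3863 bases in the 3′ UTR searched. For EIF4E the implied lengths were 844 and 933 bases, against 9344 bases searched, so the window printed for EIF4E may also lie outside the counted isoforms. Implied lengths were below the 3′ UTR searched for other factors too. They were 1313 and 1463 bases for EIF1AD against 2054 searched, and 1127 and 1354 for EIF2S1 against 3076. For EIF4E3 they were 4137 and 4214 against 9266. The same held, among others, for EIF5A2 (2738 and 4303 against 4945), EIF1AX (2257 and 2488 against 3788) and EIF5 (2124 and 2592 against 3973). EIF3H had 1635 and 1494 against 2876. Matches counted for all these genes may thus lie outside the counted isoforms, as may the printed EIF1AD window. For EIF5A the implied lengths were 716 and 669 bases against a 1511-base transcript, so its printed window may lie outside too. For EIF4EBP2 the implied lengths were 7055 and 7016 bases, longer than its 6871-base 3′ UTR.

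Whether recovery depended on the line was read from the difference of log2 enrichments between lines, called at 1.5-fold with at least 50 counts in a library of each line. In shHuR cells, 19 of 46 factors were recovered more than in shControl and 9 less, against 39.4% and 23.5% of 12468 genes. The median difference of the factors was 0.42 and that of all genes 0.26. In shADAR1 cells, 5 of 46 were recovered more than in shControl and 6 less, against 19.7% and 14.2% of 12641 genes, and the medians were -0.11 and -0.03. These shares of factors lay near those of all genes, except for fewer calls upward in shADAR1.

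Recovery of EIF1B, a close paralog of EIF1, differed most downward in both lines. EIF1B had 431, 116 and 850 counts in the shADAR1, shHuR and shControl precipitates, against 887, 1389 and 889 in the inputs. Its log2 enrichment was -0.83 in shADAR1, -2.32 in shHuR and 0.72 in shControl, so the difference from shControl was -1.55 (95% counting interval -1.77 to -1.34) in shADAR1 and -3.04 (-3.35 to -2.74) in shHuR. The shHuR precipitate was low while the shHuR input was the highest of the inputs. EIF5 was next in shHuR, with an enrichment of -0.07 in shHuR against 1.64 in shControl, a difference of -1.71 (-1.79 to -1.64), and of -0.49 in shADAR1, where its enrichment was 1.14. EIF1AX (-1.02), EIF1 (-0.98), EIF4A1 (-0.86) and EIF4E (-0.86) were also recovered less in shHuR than in shControl, as were EIF3J (-0.74), EIF4G3 (-0.69) and EIF4A2 (-0.69). Of these 9, after a trend over GC content and length was removed, EIF1B (-2.66), EIF5 (-0.99) and EIF4A1 (-0.78) stayed past the limit, EIF1AX, EIF3J and EIF4A2 turned to 0.14, 0.17 and 0.04, and EIF1, EIF4E and EIF4G3 came to -0.58, -0.26 and -0.15.

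**Figure D4:**
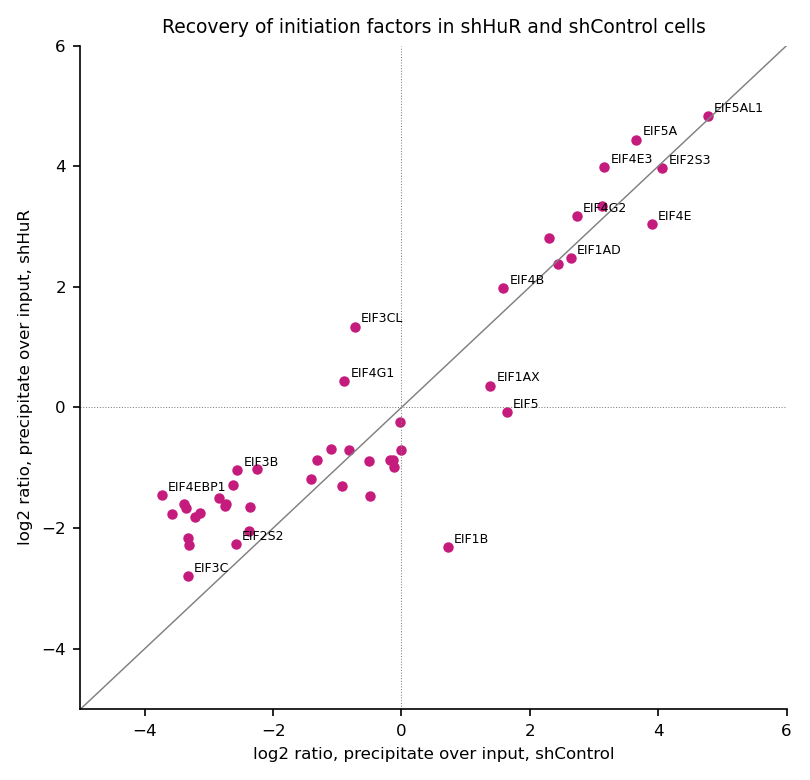
Log2 ratio of precipitate over input in shHuR cells (vertical axis) against shControl cells (horizontal axis) for each initiation factor with enough counts, 1 library pair per axis, EIF4EBP3 left out; the diagonal marks equal recovery. Recovered factors lay on both sides of the diagonal, most depleted ones above it, and EIF1B (-2.32 against 0.72) and EIF5 (-0.07 against 1.64) far below it.

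The most strongly recovered factors kept much of their recovery in shHuR. EIF5A had a log2 enrichment of 4.44 in shHuR and 3.65 in shControl (difference 0.78, interval 0.76 to 0.81), EIF2S3 had 3.97 and 4.06 (-0.09), and EIF4G2 had 3.17 and 2.73 (0.44). For EIF2S1 the values were 2.39 in shHuR and 2.43 in shControl (-0.05), for EIF4EBP2 2.81 and 2.30 (0.51), for EIF5A2 3.33 and 3.12 (0.21), and for EIF4B 1.98 and 1.58 (0.40). EIF4E3 was higher in shHuR (3.99 against 3.16, difference 0.83). Of these, EIF5A and EIF4E3 passed the 1.5-fold limit upward, and the call of EIF5A ended (0.14) once GC and length trends were removed.

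Apart from EIF1, EIF3E and EIF4E2, the factors that fell in the test were less depleted in shHuR than in shControl. Over all genes the difference was above 0 for 7257 of 12468. At the 2-fold limit, 25.4% of all genes were lower in the precipitate in shHuR and 38.3% in shControl. Depletion was thus less common in shHuR over all genes. Whether the shift is particular to the factors was not tested. EIF4EBP1 had the largest upward difference, -1.46 in shHuR against -3.73 in shControl (2.27, interval 1.81 to 2.74), which came to 0.58 and lost its call with GC and length trends removed. Its precipitate was not higher in shHuR (3.06 scaled CPM against 3.78 in shControl), while its input was far lower (8.50 against 50.8). The next largest differences were those of EIF3CL (2.07), EIF3K (1.81), EIF2B2 (1.79) and EIF6 (1.69). All 5 eIF2B subunits were past the limit, between 1.10 for EIF2B1 and 1.79 for EIF2B2, with EIF2B5 at 1.34. EIF4G1 (1.32) and EIF4A3 (1.24) lay past it as well, whereas EIF3C (0.53), EIF3A (0.44), EIF2S2 (0.32), EIF5B (0.23) and EIF4E2 (-0.38) did not reach it. The precipitate from shHuR cells held 29233961 counts, the fewest of the precipitates, and the part of depth and of unspecific recovery in this shift was not tested.

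In shADAR1 the factors recovered less than in shControl were EIF1B (-1.55), EIF3J (-0.80), EIF4E (-0.77), EIF5AL1 (-0.73), EIF4A1 (-0.71) and EIF2S3 (-0.64). Those recovered more were EIF4EBP1 (1.09), EIF3K (0.83), EIF3CL (0.78), EIF4G1 (0.68) and EIF3B (0.66). For EIF4EBP1 the precipitate was not higher in shADAR1 (3.42 scaled CPM against 3.78 in shControl), while the input was lower (21.5 against 50.8). The other factors stayed inside the limit, among them EIF1AX (-0.52), EIF1 (-0.50), EIF4A2 (-0.46), EIF5A2 (-0.42), EIF2S2 (-0.37), EIF4E2 (-0.29), EIF2B5 (-0.28) and EIF4G3 (-0.22) below 0. EIF5B (-0.15), EIF4G2 (-0.12), EIF2S1 (-0.11), EIF4E3 (-0.11), EIF5A (-0.03), EIF3A (0.08), EIF4B (0.09), EIF4EBP2 (0.11), EIF4A3 (0.34), EIF3C (0.43) and EIF6 (0.54) completed the named set. With GC and length trends removed, EIF1B (-1.13) was the only factor still called downward. Upward, 3 factors were then called, so some of the upward calls above were also lost.

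RNA levels were called at 2-fold, a wider limit than the 1.5-fold used for recovery between lines. At 1.5-fold, 8 factors were higher and 5 lower in RNA-seq, against 5 and 6 in recovery of shADAR1 against shControl. In RNA-seq, 2 of 46 factors with enough counts were at least 2-fold higher in ADAR1 KD than in Ctrl and 0 were lower, against 8.24% higher and 7.66% lower among 13235 genes. The median log2 difference of the factors was 0.11, and that of all genes -0.01. EIF4EBP2, the 4E-binding repressor, had 191 scaled CPM in ADAR1 KD and 62.5 in Ctrl (log2 difference 1.61, counting interval 1.55 to 1.68). EIF4E2, the repressive cap-binding protein, had 222 in ADAR1 KD and 95.4 in Ctrl (1.22, interval 1.17 to 1.27), which came to 0.92, under the limit, with GC and length trends removed. For EIF4E2 the counts and FPKM imply an effective length of only 208 bases in ADAR1 KD and 254 in Ctrl, so its level is uncertain. In the shADAR1 input neither gene moved that way, with EIF4EBP2 at -0.12 and EIF4E2 at -0.01 against shControl.

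By FPKM, which accounts for length, EIF4A1 was the most abundant factor, with 2209 FPKM in ADAR1 KD and 1738 in Ctrl. Its implied lengths were 724 and 676 bases against a 1756-base transcript, so this rank is uncertain. In scaled CPM, EIF4G2 was above EIF4A1 in Ctrl (1261 against 1181) but not in ADAR1 KD (1089 against 1590). EIF4E2 had 1076 FPKM in ADAR1 KD and 373 in Ctrl, values that are uncertain because of its short implied length. EIF4B had 507 FPKM in ADAR1 KD and 501 in Ctrl, EIF4A2 had 496 and 532, and EIF4G2 had 392 and 505. EIF4E had 192 FPKM in ADAR1 KD and 205 in Ctrl, and EIF4G1 had 118 and 121. EIF4E3 was at 0.92 FPKM in ADAR1 KD and 0.63 in Ctrl, far below EIF4E. In EIF4E-binding genes, EIF4EBP1 had 71.0 FPKM in ADAR1 KD and 62.8 in Ctrl, and EIF4EBP2 had 27.3 and 8.86.

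**Figure D5:**
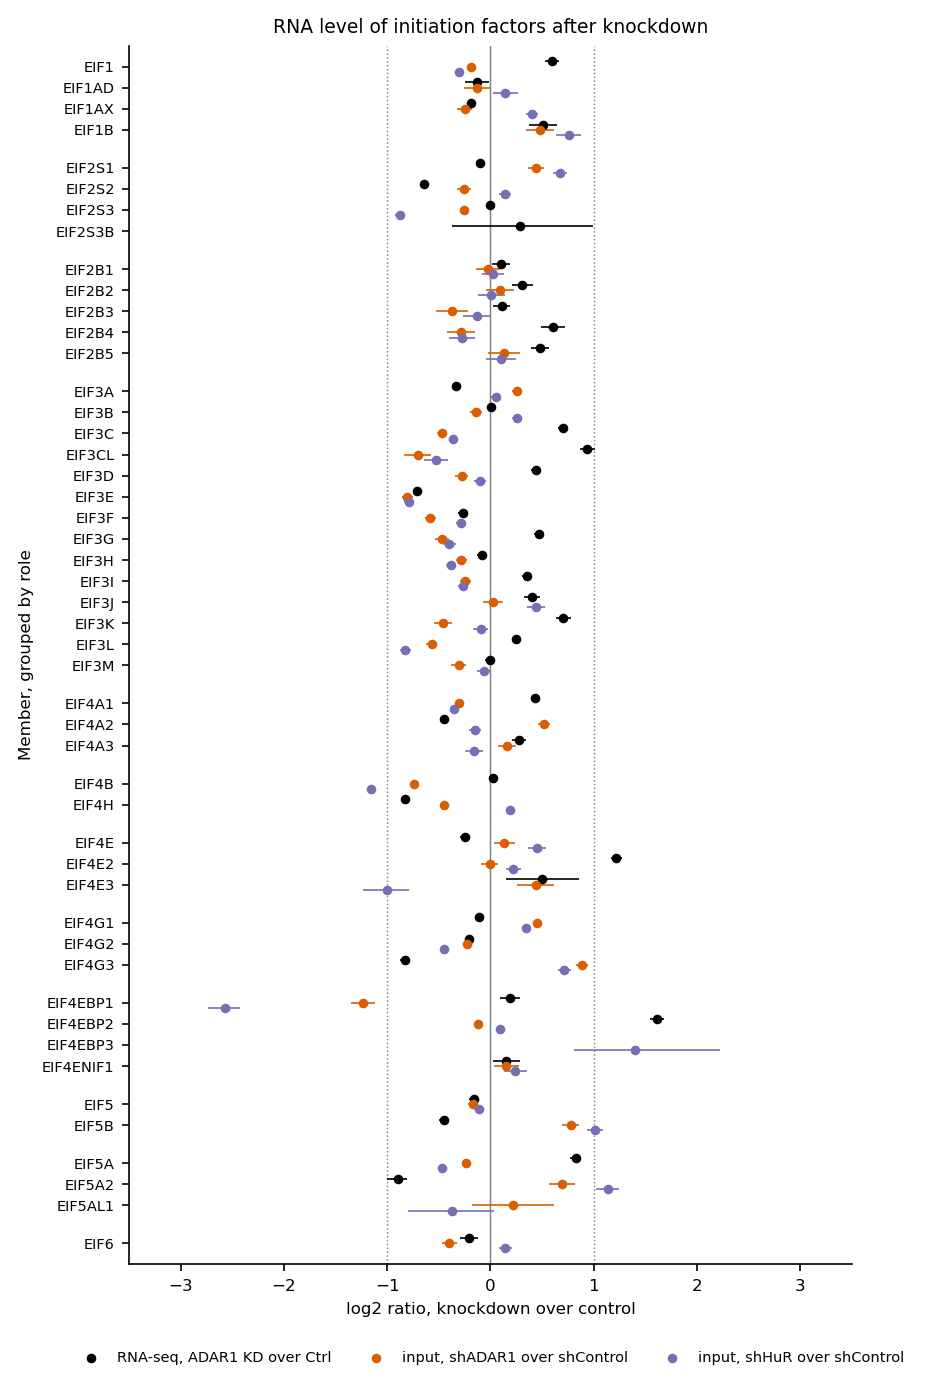
Log2 ratio of RNA level (horizontal axis), ADAR1 KD over Ctrl in RNA-seq and shADAR1 or shHuR over shControl in the inputs, for each initiation factor, grouped by role; each point is 1 library against 1 library, lines are 95% counting intervals and dotted lines mark 2-fold. Most points lay within 2-fold, with EIF4EBP2 and EIF4E2 to the right in RNA-seq and EIF4EBP1 to the left in both inputs.

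In the inputs of the RIP-seq experiment, 0 of 46 factors were higher and 1 was lower in shADAR1 than in shControl (all genes, 9.13% and 10.3%), with medians of -0.21 for the factors and -0.03 for all genes. The one was EIF4EBP1, at 21.5 scaled CPM in shADAR1 against 50.8 in shControl (-1.24, interval -1.35 to -1.12), a call that ended (-0.57) with GC and length trends removed. In shHuR, 3 of 47 were higher and 3 lower (all genes, 12.2% and 15.5%), with medians of -0.09 and -0.02. EIF4EBP1 was again the lowest, at 8.50 scaled CPM in shHuR against 50.8 in shControl (-2.57, interval -2.73 to -2.43; -1.95 with GC and length trends removed). The gene therefore stood lower in both knockdown inputs than in the shControl input, while RNA-seq gave 44.8 scaled CPM in ADAR1 KD and 39.3 in Ctrl (0.19).

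EIF4B was lower in shHuR as well, at 228 scaled CPM against 510 in shControl (-1.16, interval -1.19 to -1.13), and EIF4E3 was at the limit, with 5.02 against 10.1 (-1.01; -0.99 with DESeq2's size factors). EIF5A2 was higher, at 41.5 scaled CPM in shHuR against 18.8 in shControl (1.14, interval 1.03 to 1.25), and EIF5B was at 82.7 against 41.0 (1.01, interval 0.94 to 1.09). With GC and length trends removed EIF5A2 came to 0.72 and EIF5B to 0.70, under the limit. EIF4EBP3 was called higher from 65 counts in shHuR against 25 in shControl.

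The remaining factors of the named set stayed within 2-fold in all 3 comparisons, given in the order ADAR1 KD over Ctrl, shADAR1 input over shControl input and shHuR input over shControl input. The eIF2 subunits had log2 differences of -0.10, 0.44 and 0.67 (EIF2S1), -0.64, -0.26 and 0.14 (EIF2S2) and -0.01, -0.26 and -0.88 (EIF2S3). EIF2B5 had 0.48, 0.13 and 0.10, and all 5 eIF2B genes were between 0.10 and 0.60 in RNA-seq. EIF3A had -0.33, 0.26 and 0.05, and EIF3C, uncertain because of its copy, had 0.70, -0.47 and -0.36. EIF3E, EIF3F, EIF3H and EIF3M were below 0 in all 3. EIF3M was nearly level in RNA-seq, however, at 159.1 scaled CPM in ADAR1 KD and 159.7 in Ctrl. EIF3E, a subunit at the edge of the complex, had -0.71, -0.81 and -0.79.

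The helicases and scaffolds showed no shared direction over the experiments. EIF4A1 had 0.43, -0.31 and -0.35, EIF4A2 had -0.45, 0.52 and -0.15, and EIF4A3 had 0.27, 0.16 and -0.16. EIF4G1 had -0.11, 0.45 and 0.34, EIF4G2 had -0.21, -0.23 and -0.45, and EIF4G3 had -0.83, 0.89 and 0.72. EIF4E itself had -0.25, 0.14 and 0.45, and EIF4B had 0.02 and -0.74 in the pairs with ADAR1 knockdown. EIF1 had 0.60, -0.19 and -0.31, EIF1AX had -0.19, -0.25 and 0.40, EIF5 had -0.16, -0.17 and -0.11, EIF5A had 0.82, -0.24 and -0.47, and EIF6 had -0.21, -0.40 and 0.14. The signs of RNA-seq and of the shADAR1 input thus often differed, as for EIF5A2, which had -0.90 in RNA-seq, the lowest factor there, and 0.69 in the input.

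What the 2 experiments share after ADAR1 knockdown was asked in a fit of 4 libraries, ADAR1 KD, Ctrl and the shADAR1 and shControl inputs, with the experiment as block. Of 47 factors tested, 0 rose and 0 fell, and 0 had an unadjusted p under 0.05 (edgeR's quasi-likelihood test; DESeq2 also gave 0, 0 and 0). Among 15994 genes, 0.0813% rose and 0.0125% fell, so calls were rare for all genes. The median of the factors was 0.03. EIF4EBP2 was highest (0.74 ± 0.54, unadjusted p = 0.2) and EIF3E lowest (-0.77 ± 0.44, unadjusted p = 0.113), each with an adjusted p of 1. EIF4H had -0.65, EIF4E2 0.60, EIF4EBP1 -0.53, EIF1B 0.49, EIF4E3 0.46 and EIF2S2 -0.46. Standard errors of the factors ran from 0.41 to 0.91 on the log2 scale with 1 residual degree of freedom. ADAR, the gene knocked down, had -2.18 ± 0.50 and was itself not called (edgeR's quasi-likelihood test, unadjusted p = 0.00115, adjusted p = 0.275). Changes well above those standard errors could thus go uncalled in this design. The absence of calls does not show that the factors were unchanged.

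Other genes of translation, from lists of 28 regulators of initiation and 11 factors of elongation and termination, gave the setting. Over the 3 lines, 7 of 28 regulators rose in the precipitates and 12 fell, against 30.3% and 31.3% of all genes tested. LARP1, which binds mRNAs with a terminal oligopyrimidine tract, had the largest change (3.58 ± 0.27, adjusted p = 1.02e-05). PPP1R15B, a subunit of the eIF2 alpha phosphatase, followed with 2.79, PDCD4, an inhibitor of eIF4A, with 2.52, and EIF2AK2 (PKR), the double-stranded RNA-activated eIF2 kinase, with 2.45. MKNK2, which phosphorylates eIF4E, had 1.97, DDX3X, a helicase, 1.91, and DENR, a recycling factor, 1.38. Of the 11 elongation and termination genes, 2 rose, the eEF2 kinase EEF2K (2.43) and the release factor GSPT1 (1.96), and 9 fell, with a median of -1.95. In the test of ADAR1 knockdown, 0 of 28 regulators and 0 of 11 elongation and termination genes rose or fell (edgeR; 0 with an unadjusted p under 0.05, and 0 of each by DESeq2).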

How the data were processed

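Per the submitters' processing notes, the deposited expected counts are RSEM 1.2.3 estimates on hg19 (GRCh37 is also named for the RIP-seq); they are whole numbers and were used as deposited. The deposited FPKM values of the RNA-seq, made by the authors from the same counts and transcript lengths, served for levels and an alternative. Per the labels, the Magna RIP kit gave the precipitates and the KAPA RNA HyperPrep kit the libraries. Aligner, annotation release and strand setting are not given in the sources used here, so overlapping and antisense genes cannot be separated. The same notes list DESeq2 for the RNA-seq experiment.

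Symbols were found for 52301 of 57736 IDs. Within each experiment counts were scaled by TMM. Ratios of 2 libraries used a prior count of 2, an exact Clopper-Pearson interval (95%, counting error only; reads are not independent molecules), and a limit of 2-fold with at least 50 counts in one library; differences in enrichment used 1.5-fold and a delta-method interval. Tests used edgeR 4.0.16 (R 4.3.3) quasi-likelihood fits on all genes passing filterByExpr, with Benjamini-Hochberg adjustment: ADAR1 knockdown over 4 libraries (dispersion 0.15) and precipitate against input over 6 libraries (dispersion 0.10, 2 residual degrees of freedom). The pairing comes from the labels, since libraries of a block share the experiment or the line. The labels name no separate cultures, so p-values cover the spread among these libraries alone, which may be technical. The code of the fits was also run on simulated data with 200 changed genes. The simulated dispersion was lower than the 0.15 and 0.10 of the real fits. That run therefore does not show how well the fits find changes in these libraries. GC content, length, exon overlap and 3′ UTRs came from GENCODE 29 (GRCh38; protein-coding, basic, best APPRIS principal, longest transcript), whose coordinates were not converted. An implied length is the effective length at which a gene's count and the library total give its FPKM. It can lie below the full transcript length, so comparisons with 3′ UTR lengths are approximate.

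Genes named are all called factors where 10 or fewer were called, else the 5 highest and 5 lowest, the extremes of each comparison and a fixed set of main factors. EIF1B, EIF3E, EIF1AD, EIF4G2's sequence and other genes outside that rule were chosen after their values were seen. The members and lists were chosen with earlier results of these data known. Alternatives tried were total-count and DESeq2 (1.42.0) scaling, DESeq2's Wald test, no filter on low counts, a minimum of 10 counts, a prior count of 0.5, trends over GC content and length removed (mgcv 1.9.3), other fold limits, FPKM with a pseudocount of 0.1, no block, and each line or experiment left out.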

Additional observations from a re-analysis of the deposited data

Results flagged for a closer look

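After ADAR1 knockdown, 3 factors with enough counts were past 1.5-fold in both experiments and in opposite directions; other factors had opposite signs with smaller values. The difference was not tested because each comparison has 1 library per group. EIF4G3, the second eIF4G scaffold, had a log2 difference of -0.83 in RNA-seq (ADAR1 KD over Ctrl) and 0.89 in the inputs (shADAR1 over shControl). EIF5A2 had -0.90 in RNA-seq and 0.69 in the inputs. EIF3CL, the copy of EIF3C, had 0.94 in RNA-seq and -0.70 in the inputs.

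Recovery with the antibody against HuR was past 1.5-fold in opposite directions in a knockdown line and in shControl for 2 factors, again without a test; smaller values also differed in sign for other factors, such as EIF4G1 (0.43 in shHuR and -0.89 in shControl). For EIF1B the log2 ratio of precipitate over input was -2.32 in shHuR and -0.83 in shADAR1, against 0.72 in shControl. For EIF3CL it was 1.34 in shHuR and -0.73 in shControl.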

How the results depend on the processing

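With the line as block, 14 factors rose and 25 fell in the precipitates; with no replicate block 12 rose and 20 fell, with DESeq2's test 14 and 26, with its size factors or no filter 14 and 24, and leaving out 1 line gave 12 to 14 and 19 to 25. For ADAR1 knockdown every fit, also with no replicate block, gave 0 and 0, and leaving out either experiment leaves a median of 0.11 or -0.21 with no test. With GC and length trends removed, 0 factors were lower in the shADAR1 input, 1 was higher and 5 were lower in the shHuR input, 3 and 1 were recovered more and less in shADAR1, and 26 more and 4 less in shHuR, where the median was 0.84 in place of 0.42. At a minimum of 10 counts, 2 were lower in the shADAR1 input. At 1.5-fold, 8 were higher and 5 lower in RNA-seq, 3 and 4 in the shADAR1 input, and 6 and 6 in the shHuR input. At 2-fold, 1 and 1 were recovered more and less in shADAR1, and 16 more and 3 less in shHuR. By FPKM, 3 were higher and 1 was lower in RNA-seq. With GC and length trends removed, EIF1AX reversed in shControl recovery (-0.29), and in recovery of shHuR against shControl EIF3J (0.17), EIF3G (-0.0665), EIF4A2 (0.043) and EIF1AX (0.14) reversed; the cause was not tested. Scaling to total counts gave 10 factors higher and 31 lower in the precipitate of shADAR1, 10 and 33 in shHuR, and 11 and 29 in shControl. Of 2053 single values recomputed for factors, 1935 stayed on their side of the limit (values under it could change sign), 55 newly passed it, 58 no longer did and 5 past it reversed. One library per group, no mock precipitate and unknown isoforms limit every comparison; EIF2S3B, EIF4EBP3 and EIF5AL1 in RNA-seq rest on few counts.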
